A study of Homo sapiens with 24 samples.

Results

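Ventral neural differentiation without BRAT1 was followed in 12 of the 24 libraries of the series, all from H7, a human embryonic stem cell line, with BRAT1 knocked out. The libraries were chosen by their labels. They are the 6 taken at day 14, after ventral differentiation into neural progenitors, and the 6 taken at day 0, as undifferentiated stem cells. At each day there were 2 knockout (KO) lines with 3 biological replicates each, lettered A to C. The other 12 libraries, from 2 control lines of H7 sampled at the same days, were used only where a difference from the KO lines was tested. Poly(A) RNA was read as counts per annotated gene, and levels are given as CPM, the count scaled to the library's total. The labels do not give the edited alleles, whether a line is a clone, or the patterning agents, and the series reports bulk cultures, in which fewer cells of a type and less RNA per cell cannot be told apart.

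BRAT1 is a protein that binds subunits of Integrator, the complex that cleaves nascent RNAs made by RNA polymerase II. Human embryonic stem cells are held in the pluripotent state by a network of transcription factors around POU5F1 (OCT4) and by Nodal and FGF signals, and they form an epithelium that expresses E-cadherin. When they are turned to a ventral neural fate they lose these genes, take up neural progenitor genes such as PAX6 and VIM, and, under Hedgehog signalling, switch on ventral transcription factors such as NKX2-2 and NKX2-1. The comparison asks which of these changes are seen when BRAT1 is missing.

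The counts need to be read with their strand in mind. Most reads were filed under the feature on the strand opposite the transcribed gene. Of 991 pairs of a noncoding feature and the coding gene opposite it, 919 (92.7%) held more counts under the noncoding feature. A feature is therefore given here together with the gene opposite it, where its exons overlap those of 1 gene on the other strand, and a count under a gene's own name is called an own-name count. How many reads went to the gene's own name was measured over 266 of these 919 pairs, as the median of the coding gene's own-name count in percent of the count under the feature opposite. This wrong-strand percent was 4.25 ± 0.955 at day 14 and 0.636 ± 0.230 at day 0 (SD, n = 6 each), and the groups did not overlap (exact two-sided permutation test, adjusted p = 0.00325, raw p = 0.00216, the smallest that the design allows). Own-name counts thus moved with day over many genes. Over 178 pairs tested, the log2 fold change under the coding gene's own name was by median 2.07 above that of the feature opposite. The part of this shift in own-name rises was not tested.

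The libraries also differed in depth and in breadth. They held 2688218 to 3726227 counts at day 14, against 1425141 to 2143871 at day 0. The number of features that received at least 1 count was 20769 to 24854 at day 14, against 10176 to 15005 at day 0. After thinning all libraries to the same depth it was 19139 to 22504 at day 14 against 9791 to 13962 at day 0 (exact permutation test, adjusted p = 0.00361). At day 0 the replicate A libraries stood apart in all 4 lines, with 15.2% to 18.8% of counts in mitochondrially encoded features, against 4.19% to 7.32% in replicates B and C. Percentages of mitochondrial counts were 11.6% to 15.1% at day 14 and 4.19% to 18.7% at day 0 in the KO lines, and overlapped. For some features below it is said whether the call held without the replicate A libraries or in them alone. The fit of replicate A alone holds 1 library for each KO line and day. It has little power, so a call lost there does not show that the change depends on the replicate.

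**Figure D1:**
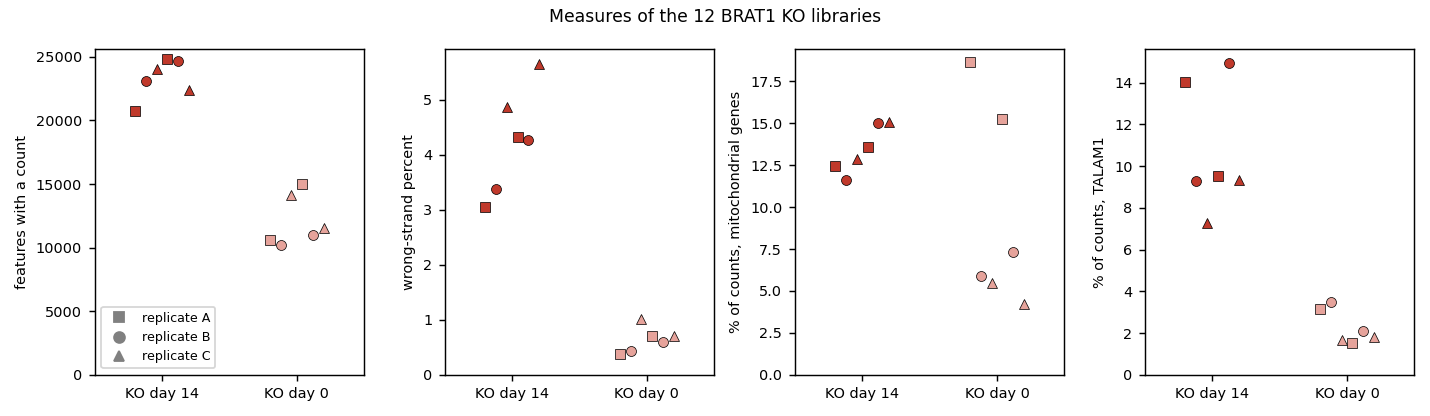
Each point is 1 of the 12 BRAT1 KO libraries, day 14 on the left and day 0 on the right of each panel, with replicate letters as symbols; the y axes give features with a count, the wrong-strand percent, and the percent of counts in mitochondrially encoded features and under TALAM1. Features with a count run from 20769 to 24854 at day 14 and from 10176 to 15005 at day 0, and the 2 replicate A libraries of day 0 are the highest in mitochondrial percent, at 15.2% and 18.7%.

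The targeted gene was examined first. BRAT1 (ENSG00000106009, GRCh38 chromosome 7, 2537877 to 2555727) has no gene opposite it in the annotation used, so only its own-name counts could be read. In KO line 1 it had 30, 21 and 63 counts at day 14 and 0 in each library at day 0. In KO line 2 it had 248, 227 and 262 counts at day 14, against 8, 0 and 10 at day 0. Control lines had 414 to 1077 counts at day 14 and 0 to 6 at day 0. The day 14 KO libraries were thus all below the control libraries of that day, whereas at day 0 both genotypes were near 0 and the label could not be checked there. The fitted rise with day in KO lines had a log2 fold change of 4.59 (SE 0.79, edgeR adjusted p = 0.00017).

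Sequences at the loci of some of the largest changes are shown first. Counts under LARP7 lie opposite MIR302CHG, the host transcript of the miR-302/367 cluster, the microRNAs best known for their abundance in human embryonic stem cells. The mature 3p arms of the cluster are given from RefSeq (GRCh38.p14, chromosome 4, minus strand, between 112647877 and 112648511), with the seed, bases 2 to 8, in capitals. MicroRNAs themselves were not measured in this poly(A) assay.
hsa-miR-302a-3p: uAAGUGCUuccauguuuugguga
hsa-miR-302b-3p: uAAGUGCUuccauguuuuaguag
hsa-miR-302c-3p: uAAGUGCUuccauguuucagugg
hsa-miR-302d-3p: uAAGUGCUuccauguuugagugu
hsa-miR-367-3p: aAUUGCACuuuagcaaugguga
The 4 miR-302 arms share the seed AAGUGCU and differ only after it, and miR-367 has the seed AUUGCAC.

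The largest rise was under NKX2-2-AS1, opposite NKX2-2. RefSeq gives NKX2-2 a pair of starts, and the window of 250 bases before to 50 after the start nearer to that feature is shown (GRCh38.p14, chr20:21512911-21513210, minus strand).
NKX2-2 promoter: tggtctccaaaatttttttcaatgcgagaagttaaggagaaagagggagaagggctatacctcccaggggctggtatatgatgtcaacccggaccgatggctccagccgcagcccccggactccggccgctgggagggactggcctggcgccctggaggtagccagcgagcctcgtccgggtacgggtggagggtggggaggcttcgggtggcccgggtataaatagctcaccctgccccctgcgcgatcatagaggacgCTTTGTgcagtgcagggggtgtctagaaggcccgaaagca
The capitals mark the motif ACAAAG, a SOX-type motif, on the other strand. The motif ACAAAG, the homeobox-type motif TAATTA and the GLI-type motif TGGGTGGTC were searched on both strands, and none overlaps another in this window. ACAAAG is held by 16.1% of all 35116 windows of this length in the RefSeq table, TAATTA by 4.84% and TGGGTGGTC by 0.236%. The other NKX2-2 window, both windows of FEZF1 and the window of OTX1, a pair of forebrain factors that also rose, held none of the 3 motifs.

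Day 14 KO cells differed from day 0 KO cells in 3951 of 8536 features tested. Of these, 2420 rose (28.4% of the features tested) and 1531 fell (17.9%; edgeR quasi-likelihood test with line as a term, Benjamini-Hochberg adjusted p under 0.05). Relative to other features a change should be read against the median log2 fold change of all features tested. It was 0.58 with TMM scaling, 0.85 with RLE scaling and 1.00 with the replicate block. That block joins the day 14 and day 0 libraries that share a line and a replicate letter. Rises were 61.3% of the calls with TMM scaling, 69.0% with RLE scaling and 69.8% with DESeq2. In a test against a 2-fold change, 2572 features passed. A feature that is near 0 at one day could be tested only through the other day and so had to differ. This holds for many members of the gene lists below, so their counts of rises and falls describe a list and do not test it. In all, 207 features tested had 0 counts in every day 0 library, 8 had 0 in every day 14 library and 4458 had a count in all 12.

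The direction differed between classes of features. Among 2493 features with more counts than the gene opposite, 20.4% rose and 30.3% fell (median log2 fold change -0.14). Among 4740 features that could not be paired with 1 gene opposite, 32.7% rose and 13.1% fell (median 0.99). These hold own-name counts, but also features that overlap more than 1 gene on the other strand, such as NKX2-1-AS1 and EMX2OS. The reading is therefore named beside each count of a gene list. Each such count is to be read beside the shares over all features tested, of which 28.4% rose and 17.9% fell.

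The 10 features named for the largest rises had 0 counts in all 6 KO libraries of day 0. NKX2-2-AS1 (chromosome 20, 21511447 to 21512309), opposite the ventral neural factor NKX2-2, had 1495, 1580 and 1484 CPM in line 1 and 1667, 1252 and 1776 CPM in line 2 at day 14. Against a floor of 3 counts over the 6 day 0 libraries, it was at least 5531-fold higher at day 14. NKX2-1-AS1 (chromosome 14, 36519278 to 36523016) overlaps 2 genes on the other strand, among them NKX2-1, a factor of the ventral forebrain and hypothalamus. It had 203 to 307 CPM at day 14 with a median of 269.8 and was at least 942-fold higher. ZEB2-AS1, opposite ZEB2, a zinc finger factor of neural development, had 174 to 235 CPM at day 14 and was at least 712-fold higher. LINC02487, an intergenic noncoding RNA, had 151 to 182 CPM and was at least 600.4-fold higher. All day 14 libraries of these features were far above all day 0 libraries.

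The other 6 were EMX2OS, which overlaps the forebrain factor EMX2 and another gene on the other strand, and the own-name counts of SCRT2, NR2F2, HES5, VEPH1 and LINC01289. Each had between 37.6 and 149 CPM in every day 14 library and was at least 247-fold higher than the day 0 floor. HES5, the Notch effector of neural progenitors, had a median of 69.9 CPM at day 14. NR2F2, a nuclear receptor of ventral and caudal forebrain, had a median of 61.1 CPM.

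Among features with a symbol, the largest falls included features opposite stem cell genes. LARP7 (chromosome 4, 112636964 to 112657592), opposite MIR302CHG, had 1.61 to 10.1 CPM at day 14 with a median of 4.43, against 2411 to 15383 CPM with a median of 8362 at day 0 (log2 fold change -11.14, SE 0.72, edgeR adjusted p = 4.53e-09). At day 0 the replicate A libraries were the lowest, at 2460 and 2411 CPM, and still above every day 14 library. MIR302CHG itself, whose own-name counts lie opposite LARP7, had 2584 ± 434 CPM at day 14 and 7762 ± 4501 CPM at day 0 (SD, n = 6 each). It fell by 2.08 on the log2 scale and did not pass in the replicate A libraries alone. LRRC2 (chromosome 3, 46515423 to 46580099), opposite TDGF1, the Nodal co-receptor, had 3 counts over all day 14 libraries, against 374 to 645 CPM at day 0, and was 3162-fold lower (95% exact counting interval 1081 to 15337). C13orf42, with no gene opposite, had 0 to 0.941 CPM at day 14 and 270.4 to 1394 CPM at day 0 (log2 fold change -12.03, SE 0.66, adjusted p = 5.55e-10).

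Other large falls took in LTBR, opposite SCNN1A, a subunit of the epithelial sodium channel, at 0 to 1.61 CPM at day 14 against 577 to 1553 CPM at day 0 (log2 fold change -11.02). KIFC2, opposite FOXH1, the nuclear partner of Nodal-activated SMAD proteins, had 0 to 1.91 CPM at day 14 against 77.8 to 327 CPM at day 0 (log2 fold change -9.74). YIF1B and GLB1L3, with no gene opposite, fell by 9.96 and 9.50 on the log2 scale. WWC2-AS2 was at 0 in every day 14 library and at least 156-fold lower. PRDX1P1, a pseudogene that may share reads with PRDX1, was also at 0 and at least 223-fold lower.

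**Figure D2:**
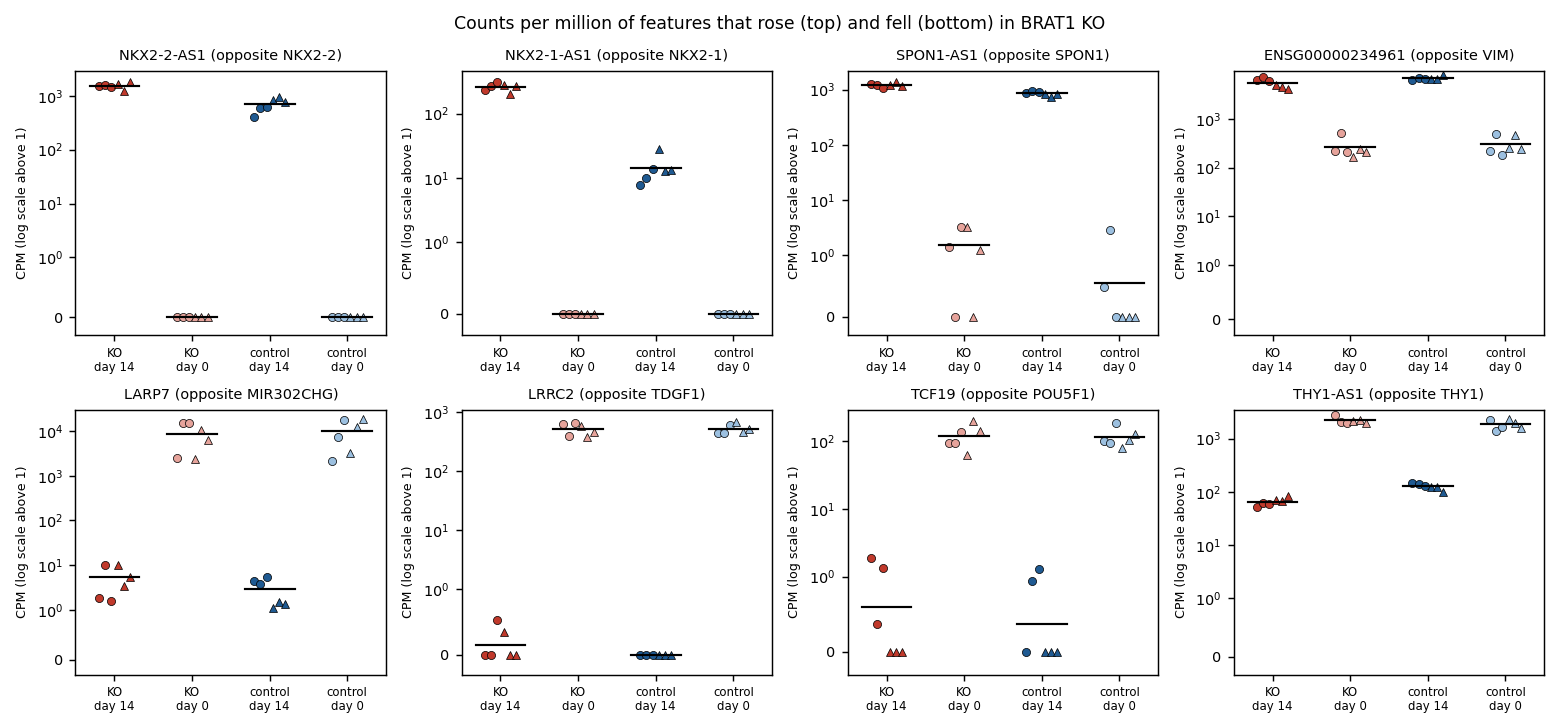
CPM in each library, on a scale that is logarithmic above 1 CPM, for 4 features that rose (top row) and 4 that fell (bottom row), with the gene opposite in brackets; circles are line 1, triangles line 2 and bars the mean of 6 libraries. In KO lines NKX2-2-AS1 stands at 1252 to 1776 CPM at day 14 and at 0 at day 0, and LARP7 at 1.61 to 10.1 CPM at day 14 and 2411 to 15383 CPM at day 0.

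Pluripotency genes fell where the feature opposite them could be read. Of the 28 genes listed, 6 had a tested feature opposite, and all 6 fell (median log2 fold change -8.95, against 0.58 over all features; 17.9% of features tested fell). They lay opposite POU5F1, TDGF1, NODAL, FOXH1, FGF2 and FOXD3. All but the feature opposite FGF2 were at or near 0 at day 14, so they could be tested only through day 0 and had to differ. TCF19, opposite POU5F1, the central pluripotency factor, had 0 to 1.86 CPM at day 14 with a median of 0.182, against 62.7 to 195 CPM at day 0 with a median of 114 (log2 fold change -8.15, SE 0.68, edgeR adjusted p = 7.9e-08). ENSG00000280401, opposite NODAL, the ligand that sustains pluripotency, had 1 library with a count at day 14, at 0.318 CPM, and 18.99 to 126 CPM at day 0, a ratio of 1236-fold lower (95% exact counting interval 221 to 48898). NUDT6, opposite FGF2, the growth factor of stem cell culture, kept 25.4 to 39.5 CPM at day 14, against 168 to 391 CPM at day 0 (log2 fold change -3.75, SE 0.24, adjusted p = 4.63e-09). No library of day 14 overlapped one of day 0 in these 3 features.

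Own-name counts of the same list were mixed. Of 14 members tested, 5 fell, 2 rose and 7 did not pass (median log2 fold change 0.12). L1TD1, an RNA-binding protein of stem cells, had 0 to 1.75 CPM at day 14 and 11.9 to 130 CPM at day 0 (log2 fold change -8.56, SE 0.88, adjusted p = 9.52e-07). ESRG, a noncoding RNA of stem cells, fell by 6.10 on the log2 scale. POU5F1 under its own name fell by 3.55 and did not pass in replicate A alone. LIN28A and LIN28B, RNA-binding proteins that block let-7 maturation, rose by 1.68 and 3.03, the first of these below the 2.07 by which own-name counts rose over their pairs. Without replicate A, and in replicate A alone, neither passed. LIN28A had 35.4 to 90.2 CPM at day 14, against 0.702 to 24.6 CPM at day 0.

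Epithelial genes fell. Both tested features opposite a listed epithelial gene fell, out of 18 genes listed. Both were at or near 0 at day 14, so they could be tested only through day 0 and had to differ. ENSG00000261385, opposite PRSS8, a membrane-bound serine protease of epithelia, had counts in 1 day 14 library, at 0.941 CPM, and 554 to 953 CPM at day 0, a ratio of 4377-fold lower (95% exact counting interval 1497 to 21230). ENSG00000260798, opposite CDH1 (E-cadherin), had 0 to 1.49 CPM at day 14 with a median of 0.332, against 393 to 743 CPM at day 0 (log2 fold change -10.52, SE 0.45, edgeR adjusted p = 4.37e-11). KRT8 and KRT18 overlap on opposite strands in the annotation, so that each reads the other. KRT8 had 2.98 to 19.6 CPM at day 14, against 1753 to 3608 CPM at day 0 (log2 fold change -8.11, SE 0.39). KRT18 fell by 6.83. They encode the paired keratins of simple epithelia. GATA2, listed with this group but also a factor of blood and of ventral neural cells, rose under its own name and was at least 49.4-fold higher, at 8.78 to 21.3 CPM at day 14 against 0 at day 0. THY1-AS1, opposite THY1, a surface protein of human embryonic stem cells and of fibroblasts that stands in the mesenchyme list, had 51.3 to 82.0 CPM at day 14, against 1970 to 2849 CPM at day 0 (log2 fold change -5.63, SE 0.20, adjusted p = 9.07e-12).

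Neural progenitor genes rose in both readings. Of 28 genes listed, 7 had a tested feature opposite, VIM with 2 of them. Of these 8 features 7 rose (median log2 fold change 4.76; 28.4% of all features tested rose). Under their own names 14 of 16 members tested rose (median 3.83), and 15 of the 16 had a fitted value above the 2.07 by which own-name counts exceeded their pairs. ENSG00000234961 (chromosome 10, 17233325 to 17234833), opposite VIM, the intermediate filament of neural progenitors, had 4146 to 7157 CPM at day 14 with a median of 5548, against 168 to 519 CPM at day 0 with a median of 212 (log2 fold change 3.90, SE 0.23, edgeR adjusted p = 1.93e-09). VIM-AS1, also opposite VIM, gave a log2 fold change of 3.79. ENSG00000279437 (chromosome X), opposite POU3F4, a neural POU factor, had 1203 to 1433 CPM at day 14, against 0 to 52.8 CPM at day 0 (log2 fold change 6.41, SE 0.71). All the day 14 libraries lay above the day 0 libraries in these features.

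PAX6, the regulator of forebrain progenitors, was higher in both readings. ELP4, opposite PAX6, had 16.4 to 141 CPM at day 14 against 0 to 4.27 CPM at day 0 (log2 fold change 5.62), and the day 14 values split by line, at 16.4 to 35.7 CPM in line 1 and 114 to 141 CPM in line 2. PAX6 under its own name had 83.8 to 139.6 CPM at day 14, against 3.79 to 10.4 CPM at day 0 (log2 fold change 3.30, SE 0.36). NES, which encodes nestin, had 215 to 346 CPM at day 14, against 3.44 to 48.6 CPM at day 0 (log2 fold change 3.06). The features opposite MEIS1 and MEIS2, homeobox cofactors, were at 0 in every day 0 library and at least 113-fold and 181-fold higher at day 14. The feature opposite CDH2 (N-cadherin) rose by 3.14 on the log2 scale. The feature opposite SOX4 was the exception among those 8, at 21.9 to 53.6 CPM at day 14 and 6.17 to 57.5 CPM at day 0. When only features with a count in every library were tested, 3 of 4 opposite a progenitor gene and 4 of 4 own-name members rose.

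Anterior forebrain genes rose under their own names. Of 15 genes listed, 8 were tested under their own names and all 8 rose (median log2 fold change 7.12, or 6.54 with features at 0 set to their bound), 7 of them by more than 2.07 on the log2 scale. OTX1 (chromosome 2, 63050057 to 63057836), a homeobox factor of forebrain and midbrain, had 173 to 413 CPM at day 14 with a median of 322, and 0 CPM at day 0 except in line 2 replicate B, at 10.1 CPM (log2 fold change 7.17, SE 0.78, edgeR adjusted p = 1.87e-06). FEZF1, a zinc finger factor of the early forebrain, had 122 to 227 CPM at day 14 and 0 to 2.85 CPM at day 0 (log2 fold change 7.53, SE 0.66). LHX5, a LIM homeobox factor of anterior neural tissue, had 14.6 to 37.4 CPM at day 14 and 1 count over all day 0 libraries, a ratio of 272-fold higher. FEZF2 and EMX2 were at 0 in every day 0 library and at least 107-fold and 81.3-fold higher at day 14. SIX3, a factor of eye field and forebrain, had 43.4 to 133 CPM at day 14 and 0 to 8.07 CPM at day 0. These members were at or near 0 in most day 0 libraries, so they could be tested only through day 14 and had to differ. FEZF1-AS1, opposite FEZF1, had 293 to 479.8 CPM at day 14 and 0 to 83.7 CPM at day 0 (log2 fold change 3.46, SE 0.67, adjusted p = 0.000478), and did not pass in KO line 1 alone. It was 1 of 2 features tested opposite a listed gene, and the other, ENSG00000234921, opposite LHX2, did not pass (log2 fold change 1.59, adjusted p = 0.173).

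Ventral patterning genes rose in both readings. All 4 features opposite a listed gene rose (median log2 fold change 9.45, or 8.29 with bounds) and 8 of 10 tested own-name members rose (median 5.80), out of 23 genes listed. SPON1-AS1 (chromosome 11, 14262846 to 14273691), opposite SPON1, a secreted protein of the floor plate, had 1082 to 1347 CPM at day 14 with a median of 1209, against 0 to 3.32 CPM at day 0 (log2 fold change 8.95, SE 0.48, edgeR adjusted p = 5.17e-10). INPP5A, opposite NKX6-2, a ventral homeobox factor, had 72.2 to 134 CPM at day 14, against 0 to 5.68 CPM at day 0 (log2 fold change 6.21, SE 0.72). NKX2-1 under its own name had 10.6 to 46.4 CPM at day 14 and 0 at day 0, at least 95.9-fold higher. SPON1-AS1, INPP5A and NKX2-1 were at or near 0 at day 0, so they could be tested only through day 14 and had to differ.

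The DLX genes, homeobox factors of ventral forebrain interneuron progenitors, could be read only under their own names. DLX1 had 88.2, 77.7 and 75.1 CPM in line 1 and 29.04, 33.9 and 42.9 CPM in line 2 at day 14. At day 0 it was at 0 in 5 libraries and at 30.4 CPM, from 53 counts, in line 1 replicate B, so the groups overlap (log2 fold change 3.95, SE 1.09, edgeR adjusted p = 0.00671). The call was lost in line 1 alone and without replicate A. DLX5 had 10.98 to 53.4 CPM at day 14 and 0 at day 0, at least 89.8-fold higher, and DLX2, which was below the filter on low counts, 4.08 to 24.7 CPM and 0. FOXA2, a floor plate and endoderm factor, had 5.84 to 28.7 CPM at day 14 and 1 count at day 0.

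Hedgehog pathway genes rose with them. ENSG00000271155 (chromosome 9, 95506235 to 95507636), opposite PTCH1, the Hedgehog receptor that is also induced by the pathway, had 582 to 1157 CPM at day 14 and 5.74 to 32.3 CPM at day 0 (log2 fold change 4.93, SE 0.37, edgeR adjusted p = 2.55e-08). Its day 14 values split by line, at 582 to 649.5 CPM in line 1 and 969.6 to 1157 CPM in line 2. HHIP-AS1, opposite HHIP, a Hedgehog-binding feedback inhibitor, had 16.0 to 147 CPM at day 14 and 0 to 22.1 CPM at day 0, with overlapping groups (log2 fold change 2.58, adjusted p = 0.0196), and was lost in line 1 alone and without replicate A. The features opposite SMO and CDON, the signal transducer and a co-receptor, did not pass. Under their own names PTCH1, HHIP and BOC, a co-receptor, all rose, the 3 members tested of 11.

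Genes of other regions were mostly below the filter on low counts. Of 24 HOX and hindbrain genes none was tested in either reading. Of 12 genes of the midbrain and hindbrain boundary, features opposite 2 were tested. ENSG00000259603, opposite IRX1, rose, at 78.8 to 184 CPM at day 14 against 0 to 7.46 CPM at day 0, and PAX8-AS1, opposite PAX8, did not pass. Of 15 dorsal genes BMP7, a dorsal signal, rose under its own name and was at least 50.2-fold higher.

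Neuronal genes rose as well. Of 28 listed, 9 of 11 tested own-name members rose and 1 fell (median log2 fold change 3.82), and 4 of 5 features opposite a member rose (median 4.14). NCAM1-AS1, opposite NCAM1, the neural cell adhesion molecule, had 595 to 914 CPM at day 14 with a median of 649, against 8.42 to 18.9 CPM at day 0 (log2 fold change 5.18, SE 0.26, edgeR adjusted p = 2.44e-10). MAP2, the dendritic microtubule protein, had 23.8 to 95.8 CPM at day 14 and 0 at day 0, at least 175-fold higher. INA, a neuronal intermediate filament, had 17.3 to 42.1 CPM at day 14 and 2 counts at day 0. CRMP1, a protein of axon guidance, rose by 2.31. NHLH2, a neuronal helix-loop-helix factor, fell by 3.05 on the log2 scale under its own name, with 4.73 CPM at day 14 and 27.7 CPM at day 0 on average.

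**Figure D3:**
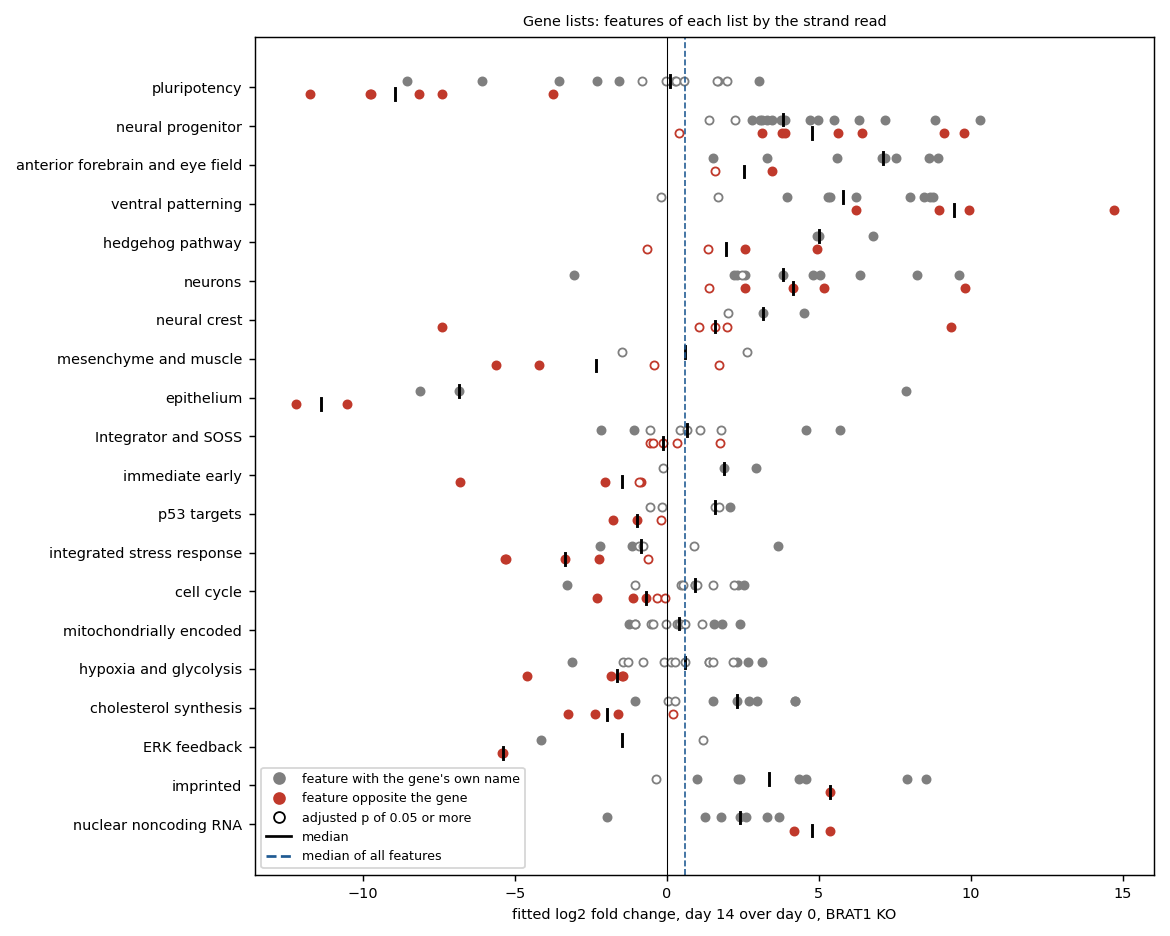
Fitted log2 fold change, day 14 over day 0, of the features of each gene list with 3 or more tested features in all; grey points carry the gene's own name, red points lie opposite a listed gene, open points did not pass, black ticks are medians and the dashed line is the median of all features (0.58). Pluripotency features opposite a gene lie between -11.74 and -3.75 while own-name members lie on both sides of 0, and ventral patterning and progenitor members lie mostly to the right.

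Markers of the cell types that the cultures could hold were summed per library. Pluripotent markers read opposite POU5F1 and TDGF1 gave 0 to 1.88 CPM at day 14 and 482 to 779 CPM at day 0, whereas the 6 own-name markers gave 46.5 to 116 CPM at day 14 and 37.2 to 262 CPM at day 0. The 6 neural progenitor markers gave 432 to 696 CPM at day 14 and 9.75 to 52.4 CPM at day 0, with HES5 and POU3F2 at 0 at day 0. The 4 neuron markers gave 32.1 to 101 CPM at day 14 and 0 to 4.27 CPM at day 0. The 3 neural crest markers gave 1.49 to 20.0 CPM at day 14 and 2.80 to 32.7 CPM at day 0 under their own names, and 0 to 2.10 CPM at day 14 and 9.75 to 149 CPM at day 0 opposite FOXD3. Mesendoderm markers gave 0 to 2.15 CPM at day 14 and 0 to 5.61 CPM at day 0, with SOX17 at 0 in all 12 libraries. The 3 mesenchyme markers gave 0.372 to 9.66 CPM at day 14 and 0 at day 0 under their own names, and 35.3 to 64.6 CPM at day 14 and 13.9 to 60.2 CPM at day 0 opposite ACTA2. The 3 epithelial markers gave 2.98 to 25.4 CPM at day 14 and 1759 to 3609 CPM at day 0. Nearly all of the day 0 sum was KRT8, at 1753 to 3608 CPM, whose count reads KRT18. CDH1 and EPCAM under their own names had at most 13.1 and 10.9 CPM at day 0. Progenitor markers and the pluripotent markers read on the opposite strand went with the labels of both days, and own-name pluripotent markers overlapped between days. The part of crest, mesendoderm and mesenchyme markers in the gene groups was not tested.

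Neural crest features were few. Of 5 features opposite a member, 1 rose, 1 fell and 3 did not pass (28.4% of all features rose and 17.9% fell), and 2 of 3 tested own-name members rose. TFAP2A-AS2, opposite TFAP2A, had 25.1 to 48.4 CPM at day 14 and 0 at day 0, at least 133-fold higher. NGFR, the low-affinity neurotrophin receptor, rose under its own name by 4.502 on the log2 scale, but the features opposite it did not pass. FOXD3-AS1, opposite FOXD3, a factor of both pluripotent cells and neural crest, fell, and is taken up below.

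Feedback targets of ERK signalling fell. PHLDA1-AS1, opposite PHLDA1, had 18.97 to 38.8 CPM at day 14 with a median of 28.2, against 501 to 1499.5 CPM at day 0 with a median of 808 (log2 fold change -5.42, SE 0.29, edgeR adjusted p = 5.17e-10). ENSG00000274021, opposite DUSP6, the phosphatase that inactivates ERK, had 14.4 to 43.0 CPM at day 14, against 419.9 to 1464 CPM at day 0 (log2 fold change -5.38, SE 0.36), and DUSP6 under its own name had a log2 fold change of -4.16. These were the 2 features tested opposite 12 listed genes. Among immediate early genes, 3 of 4 features opposite a member fell and 2 of 3 tested own-name members rose. By comparison, 17.9% of all features tested fell and 28.4% rose. Of the 3 own-name members, 1 had a value above the 2.07 by which own-name counts exceeded their pairs. IER3-AS1, opposite IER3, had 0.730 to 4.77 CPM at day 14 and 183 to 209 CPM at day 0 (log2 fold change -6.81), and ENSG00000267598, opposite IER2, fell by 2.02. JUND and CCN2 rose under their own names by 1.87 and 2.93, and neither passed in replicate A alone or without it.

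Features opposite metabolic genes mostly fell. Over all features tested 17.9% fell, and 30.3% fell among features with more counts than the gene opposite. Of the integrated stress response genes, 4 of 5 features opposite a member fell (median log2 fold change -3.34). The pair opposite MTHFD2, a mitochondrial folate enzyme, ENSG00000264324 and SLC4A5, fell by 5.32 and 5.28, the first at 11.3 to 24.6 CPM at day 14 and 350.5 to 702 CPM at day 0. The feature opposite SHMT2, a serine hydroxymethyltransferase of mitochondria, fell by 3.34. Under their own names 1 of 6 tested members rose and 2 fell (median -0.86). The one that rose was MTHFD2, by 3.65, and it did not pass in KO line 2 alone. Of the cholesterol synthesis genes, 3 of 4 features opposite a member fell, among them ENSG00000261604, opposite HMGCS1, an early enzyme of the pathway (log2 fold change -2.35). Under their own names 6 of 9 rose, among them INSIG1 (4.23) and SREBF2 (4.22). Of the hypoxia and glycolysis genes all 4 features opposite a member fell (median -1.66), among them ENSG00000269968, opposite GAPDH, at 6949.97 to 9445 CPM at day 14 and 13108 to 17295 CPM at day 0 (log2 fold change -1.45, SE 0.15). Under their own names 4 of 15 rose, near the 28.4% of all features, and their median of 0.61 was near the 0.58 of all features. Among them were PKM (1.39) and KDM3A (2.66), neither of which passed in KO line 1 alone, and PDK1 fell by 3.13. The readings of the cholesterol list and of MTHFD2 went opposite ways beside the difference in wrong-strand percent, whose part was not tested.

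Cell cycle genes mostly did not pass. Of 11 own-name members 2 rose and 1 fell, and of 5 features opposite a member 3 fell (median log2 fold change -0.68). Over all features tested 28.4% rose and 17.9% fell. Among features with more counts than the gene opposite 30.3% fell. EXOSC9, opposite CCNA2 (cyclin A2), had 89.0 to 193 CPM at day 14 and 249.8 to 659.6 CPM at day 0 (log2 fold change -2.31), and CCNA2, opposite EXOSC9, fell by 3.30. LTO1, opposite CCND1 (cyclin D1), fell by 1.11, while CCND1 under its own name rose by 2.35. Neither passed in KO line 1 alone, CCND1 did not pass without the replicate A libraries, and LTO1 did not pass against a 2-fold change. Of the p53 targets, 2 of 3 opposite features fell and 1 of 5 own-name members rose, to be read beside the same shares. The features opposite SESN1 and MDM2 fell by 1.77 and 0.97. The feature opposite MDM2 did not pass in 12 of 29 alternatives, RLE scaling and DESeq2 among them. POLH rose by 2.08 under its own name and did not pass in 13 of 27.

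Most tested imprinted genes and nuclear noncoding RNAs rose. Of 18 imprinted genes, 7 of 8 tested own-name members rose (median log2 fold change 3.38), against 28.4% of all features tested. Of these 8 members, 6 had a value above the 2.07 by which own-name counts exceeded their pairs. DLK1, a membrane protein of the Notch ligand family, had 78.8 to 161 CPM at day 14 and 2 counts over all day 0 libraries, a ratio of 652-fold higher (95% exact counting interval 180.2 to 5383). MEG3, its noncoding neighbour, was at 0 at day 0 and at least 51.2-fold higher. GNAS and PEG10 rose by 4.36 and 4.58. Of 7 tested own-name members of the nuclear noncoding RNA list 6 rose and 1, XACT, fell by 1.97, and both features opposite a member rose. Of the 7, 4 had a value above 2.07. TALAM1, counted here as an own-name member, is the antisense partner of the abundant nuclear RNA MALAT1. By the strand reading given above, reads of MALAT1 would be filed under TALAM1, so its counts are not to be read as antisense RNA. TALAM1 had 72682 to 149208 CPM at day 14 and 15286 to 34677 CPM at day 0 (log2 fold change 1.77, SE 0.25, edgeR adjusted p = 2.81e-05). MALAT1 under its own name had 54.3 to 99.4 CPM at day 14 and 4.75 to 12.6 CPM at day 0. ENSG00000206028, opposite MIAT, another nuclear RNA, had 1314 to 1511 CPM in line 1 and 2986 to 4284 CPM in line 2 at day 14, against 31.9 to 149 CPM at day 0 (log2 fold change 4.17).

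Mitochondrially encoded features had no common direction, with 3 of 15 rising and 2 falling (median log2 fold change 0.39). Over all features tested 28.4% rose and 17.9% fell (median 0.58). They were read under their own names, and 1 of the 15 had a value above the 2.07 by which own-name counts exceeded their pairs. MT-CO1, MT-CO2 and MT-ND1 rose by 2.42, 1.80 and 1.54, and the last 2 were lost in replicate A alone. Of the Integrator and SOSS genes besides BRAT1, INIP rose (ratio 81.1-fold higher, from 3 counts at day 0), and INTS8 and INTS11, the catalytic subunit, fell by 2.18 and 1.07. INTS11 had 96.6 to 166 CPM at day 14 and 109 to 286 CPM at day 0, with overlapping groups, and was lost in line 1 alone and without replicate A. The 5 features opposite a member did not pass. INTS9, below the filter, had 2 to 14 counts at day 14 and 0 at day 0.

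The 2 KO lines did not differ in a called feature. The test of the difference of day effects, line 2 minus line 1, called 0 of 8536 features (0%; edgeR), with 762 at an unadjusted p under 0.05 and 64 called by DESeq2. Log2 fold changes of the lines correlated across features at r = 0.77. Of the 3951 called features 3897 were tested in each line alone, and each had the same direction in both. The calls came from a fit of these same libraries, so this shared direction was largely fixed by the selection. Line 1 alone called 2499 features and line 2 alone 3626. Features such as those opposite PAX6, PTCH1 and MIAT stood higher in line 2 at day 14 without a called difference of day effects.

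Control lines were set beside the KO lines by the same fit. Of 7821 features tested in controls 3498 were called (44.7%). Of the KO calls 61.3% were also called in controls, and of the control calls 69.3% were also called in KO lines, in all 2423 features, of which 2418 changed in the same direction. The comparisons share no library, and across 7107 features tested in both the log2 fold changes had r = 0.85. Wrong-strand percent was 3.05 to 5.65 in KO lines and 2.45 to 3.42 in control lines at day 14, and 0.383 to 1.02 in KO lines and 0.356 to 1.09 in control lines at day 0.

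**Figure D4:**
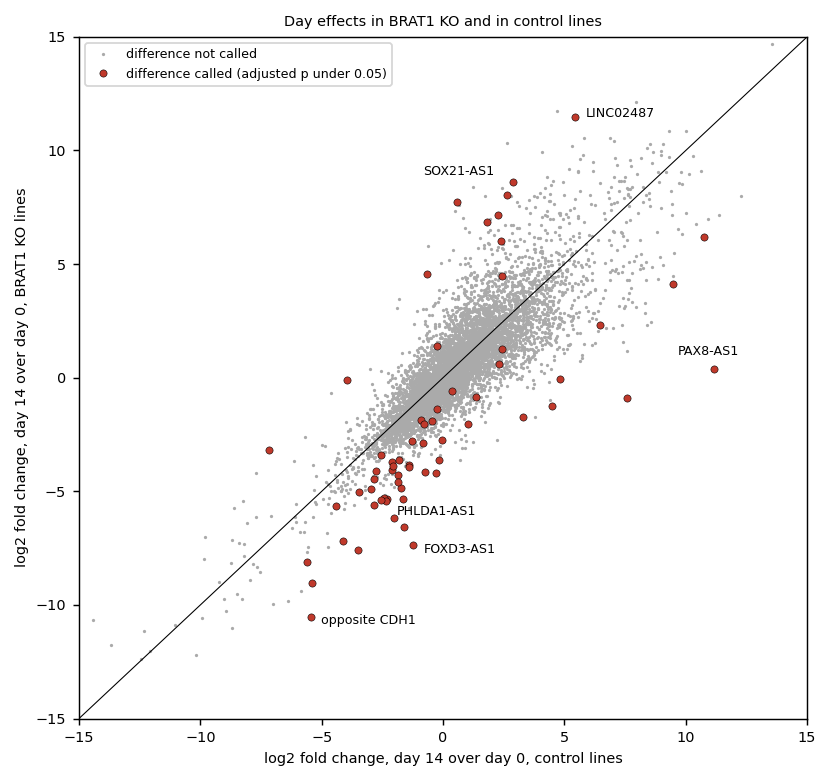
Fitted log2 fold change, day 14 over day 0, in BRAT1 KO lines (y axis) against control lines (x axis) for 7107 features, with the line of equal change; red points are features whose difference of day effects was called in the fit of all 24 libraries. Most features lie near the line (r = 0.85), and FOXD3-AS1, the feature opposite CDH1 and PHLDA1-AS1 lie below it and LINC02487 and SOX21-AS1 above it.

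The difference of day effects, KO minus control, was called in 73 of 10971 features. In 15 it was positive (0.137%) and in 58 negative (0.529%; edgeR, all 24 libraries). Of the 58, 36 had lower means at day 14 in both genotypes, 14 were lower in KO lines and higher in controls, and 8 were higher in both. Several of the 36 were the stem cell and epithelial features described above. ENSG00000260798, opposite CDH1, had 0.509 ± 0.521 CPM in KO lines and 21.4 ± 2.13 CPM in control lines at day 14, and 558 ± 151 CPM in KO lines and 649 ± 218 CPM in control lines at day 0 (SD, n = 6; difference of log2 fold changes -5.04, SE 0.49, edgeR adjusted p = 1.06e-07). KRT8 differed by -2.52. THY1-AS1 differed by -1.18.

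FOXD3-AS1 (chromosome 1, 63320884 to 63324441), opposite FOXD3, had 0, 1.82 and 0 CPM in KO line 1 and 2.10, 1.57 and 0 CPM in KO line 2 at day 14. At day 0 these lines had 138, 9.75 and 107 CPM and 149, 122 and 111 CPM. Control lines had 36.2 to 60.3 CPM at day 14 and 44.0 to 186 CPM at day 0, and overlapped between days. The day effects differed by -6.17 (SE 0.83, edgeR adjusted p = 4.5e-05). The day 14 KO libraries were below all libraries of the other groups.

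The features opposite both ERK feedback genes also differed. PHLDA1-AS1 had 28.2 ± 6.85 CPM in KO lines and 218 ± 34.0 CPM in control lines at day 14, and 859.8 ± 364 CPM in KO lines and 754 ± 129 CPM in control lines at day 0 (SD, n = 6; difference -3.08, SE 0.30, edgeR adjusted p = 1.06e-07). The feature opposite DUSP6 differed by -2.80 (SE 0.37, adjusted p = 3.95e-05), and the feature opposite MTHFD2 by -3.01 (SE 0.33, adjusted p = 1.23e-06). GJD2-DT, opposite ACTC1, a muscle actin, had 5.21 to 8.27 CPM in KO lines and 38.8 to 72.4 CPM in control lines at day 14, and 24.7 to 192 CPM in KO lines and 19.3 to 80.2 CPM in control lines at day 0 (difference -3.90, SE 0.60, adjusted p = 0.000282).

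Features opposite 3 neural factors were below their control level at day 14. PAX8-AS1, opposite PAX8, a factor of midbrain and hindbrain, had 1.82 to 12.3 CPM in KO line 1, 37.8 to 46.9 CPM in KO line 2 and 349 to 529 CPM in control lines at day 14. At day 0 it was at 0 in 4 KO libraries and at 36.7 and 21.8 CPM in the other 2, and at 0 in 5 control libraries. The difference was -10.79 (SE 1.90, edgeR adjusted p = 0.00697), and with the replicate block it was not called (adjusted p = 0.475). ENSG00000271776, opposite POU4F1, a factor of sensory and midbrain neurons, had 27.4 to 83.8 CPM in KO lines and 403 to 492 CPM in control lines at day 14, against 0 to 11.9 and 0 to 1.46 CPM at day 0 (difference -5.39, adjusted p = 0.0384). INPP5A, opposite NKX6-2, had 72.2 to 134 CPM in KO lines and 249 to 486 CPM in control lines at day 14 (difference -4.57, edgeR adjusted p = 0.0431). At day 0 INPP5A had 0 to 5.68 CPM in KO lines, the highest from 9 counts in line 2 replicate C. Control lines had 0 to 0.710 CPM at day 0, so the size of the difference rests in part on few day 0 counts. SLCO4A1-AS1, CDC42EP1 and the pseudogene CALM2P2, which may share reads with CALM2, differed by -6.19, -5.71 and -8.47, with means of at most 29.5 CPM in any group. CDC42EP1 was lost in 20 of 29 alternatives, RLE scaling among them, and CALM2P2 was not called with the replicate block (adjusted p = 0.108).

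With edgeR, 15 of the 73 differences were positive, while DESeq2 called 213 positive and 174 negative differences. LINC02487 had 151 to 182 CPM in KO lines and 15.7 to 33.7 CPM in control lines at day 14, and 0 in KO lines and 0 to 1.54 CPM in control lines at day 0 (difference 6.10, SE 1.37, edgeR adjusted p = 0.0325). CAPN6, a calpain family gene read under its own name, had 54.7 to 132 CPM in KO lines and 0 to 4.20 CPM in control lines at day 14. At day 0 it had 1 count in KO lines and 0 to 57.8 CPM in control lines, the highest in line 2 replicate B (difference 9.79, adjusted p = 0.00435). POU3F4 under its own name had 15.4 to 37.5 CPM in KO lines and 3.46 to 14.1 CPM in control lines at day 14, and 0 in KO lines and 0 to 39.4 CPM in control lines at day 0 (difference 9.69, adjusted p = 0.0103). With the replicate block neither LINC02487 nor POU3F4 was called (adjusted p = 0.162 for POU3F4), and LINC02487 was lost in 4 of 29 alternatives. SLC25A15 and EML1 had differences of 7.15 and 5.82 with adjusted p of 0.041 and 0.0467 and were lost in 22 of 29 alternatives each. These own-name counts may carry the higher wrong-strand percent of the day 14 KO libraries, which was not tested.

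For several features that rose in KO lines the difference from controls was not called. NKX2-1-AS1 had 203 to 307 CPM in KO lines and 7.87 to 28.1 CPM in control lines at day 14, and 0 in all 12 libraries of day 0. With 0 at day 0 in both genotypes the fitted difference of 4.15 had no usable error (adjusted p = 1), so this test says nothing of it. FEZF1-AS1 had 293 to 479.8 CPM in KO lines and 13.0 to 20.4 CPM in control lines at day 14, and 0 to 83.7 CPM in KO lines and 2.86 to 121 CPM in control lines at day 0 (difference 5.25, SE 1.339, adjusted p = 0.0726). DLX1 had 29.04 to 88.2 CPM in KO lines and 0 to 0.589 CPM in control lines at day 14 (edgeR adjusted p = 0.966). At day 0 it was at 0 in every control library, and in KO lines only line 1 replicate B had counts, at 30.4 CPM. With so few day 0 counts the test cannot tell whether the day effects of DLX1 differ. NKX2-2-AS1 had 1252 to 1776 CPM in KO lines and 401 to 946 CPM in control lines at day 14, and 0 in all 12 libraries of day 0. With 0 at day 0 in both genotypes, its missing call does not show that the day effects were equal.

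**Figure D5:**
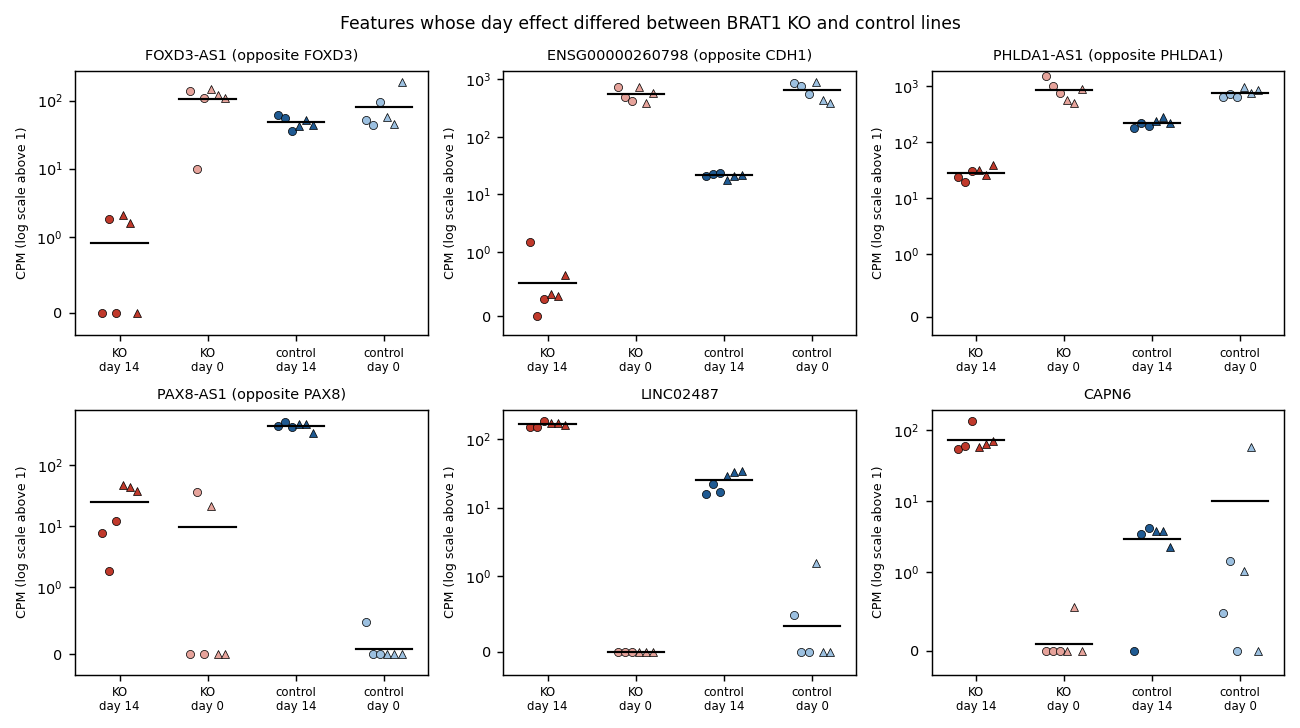
CPM in each library, on a scale that is logarithmic above 1 CPM, for 6 features whose difference of day effects was called; circles are line 1, triangles line 2 and bars means of 6 libraries. FOXD3-AS1 stands at 0 to 2.10 CPM in KO day 14 libraries and at 36.2 to 60.3 CPM in control day 14 libraries, and PAX8-AS1 at 1.82 to 46.9 CPM in KO and 349 to 529 CPM in control libraries of that day.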

How the data were processed

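Poly(A) RNA was sequenced by Click-Seq, which keeps the strand of the RNA, per the labels' protocols. The authors deposited raw counts per gene for each library. The submitters' processing notes name bcl2fastq 2.20.0, STAR 2.7.9a, Subread 2.0.1 with featureCounts, DESeq2 1.34.0, R 3.5.1 and GRCh38. The sources used here give neither the annotation release nor the strand setting of the counting. Of 61248 features per library, 57015 were placed on GENCODE 29, holding 89.5% of KO counts. A feature was paired with the gene opposite it where exons overlapped by at least 100 bases and 90% of the overlap lay with 1 gene (8225 features).

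Counts were tested with edgeR 4.0.16 in R 4.3.3 (quasi-likelihood, TMM scaling, filterByExpr, Benjamini-Hochberg, threshold 0.05), with line as a term. The steps were tested on simulated data. DESeq2 1.42.0 was an alternative, as were other scalings, filters, thinning, the replicate block, single lines and each replicate left out. The replicate letters did not pair day 14 with day 0: deviations of same-lettered libraries of a line correlated at -0.02 to 0.06 over 6 pairs. The replicate block joins these pairs and is not a term for the letter alone, so a call lost with it does not show a letter effect. At day 0, same-lettered libraries of different lines correlated at 0.05 to 0.21 over 18 pairs, against -0.14 to 0.01 over 36 pairs with different letters. The labels do not say what a letter marks, and with 2 lines per genotype the p-values measure the spread between these samples. Intervals and the floor of 3 counts over a group cover counting error only.

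Named features had a mean of at least 5 CPM, a symbol and the same direction in both lines. They are the 10 largest rises and falls, up to 3 called own-name and 2 opposite features with the smallest adjusted p per list, the 5 largest called differences from controls in each direction, and 9 features fixed by name. Others were named after their values were seen. The 26 lists and the members were chosen with earlier results of these data known. Some features that this rule names are not reported here.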

Additional observations from a re-analysis of the deposited data

Results flagged for a closer look

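In 53 groups of 6 libraries the highest or lowest library was compared with its nearest neighbour. Chance alone sets a library apart in about 1 in 20 groups if values are normally distributed, which counts near 0 are not. Where all but 1 library are at 0, as for KIFC2 at day 14 and DLX1 at day 0, that library is always set apart. In KO lines at day 14, single libraries stood apart for C13orf42 (0.941 CPM), YIF1B (2.45 CPM) and KIFC2, opposite FOXH1 (1.91 CPM). In KO lines at day 0, single libraries stood apart for LTBR, opposite SCNN1A (1553 CPM), YIF1B (925 CPM) and DLX1 (30.4 CPM, with the other 5 libraries at 0).

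The day effect differed between KO and control lines, by the test of the difference, in 10 named features. The log2 day effect in KO minus control was positive for CAPN6 (9.79), POU3F4 (9.69), SLC25A15 (7.15), LINC02487 (6.10) and EML1 (5.82). It was negative for PAX8-AS1 (-10.79), CALM2P2 (-8.47), SLCO4A1-AS1 (-6.19), FOXD3-AS1 (-6.17) and CDC42EP1 (-5.71). FOXD3-AS1 and CAPN6 kept their call in every alternative that tested them.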

How the results depend on the processing

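The count of 3951 features called between day 14 and day 0 in KO lines moved by over 1.5 times in 6 alternatives: 7345 with no filter, 2276 with a count in every library, 2572 against a 2-fold change, 2499 in KO line 1 alone, and, chosen after seeing the data, 1302 among features above the gene opposite and 1453 in replicate A alone. Without replicate A it was 3527, and leaving out each library gave 3564 to 4897. Rises were 61.3% of calls, 68.0% with the replicate block (4097 calls), 47.8% with a count in every library and 50.1% with counts summed per line. Of 119 named called features, 78 kept their call in every alternative that tested them, 41 lost it in at least 1 and 0 reversed. PAX8-AS1, not called (0.36), turned negative in KO line 1 alone (-1.17) and without 1 of 2 day 0 libraries of line 2, where leaving out single libraries gave -0.16 to 2.56. The difference between KO lines (0 calls) gave 64 with DESeq2, 31 with no filter and 0 to 1 when leaving out a library (1 without line 2 day 0 replicate A). Control calls were 6604 with no filter, against 3498. The 73 differences between KO and control day effects became 387 with DESeq2 (213 positive and 174 negative), 227 with no filter, 50 with the replicate block and 43 to 116 when leaving out a library: 43 and 46 without control line 1 day 14 replicates A and B, 47 without control line 2 day 14 replicate B or KO line 2 day 14 replicate C, and 116 without control line 1 day 0 replicate A. With RLE scaling 36.4% of these were positive, against 20.5%. The replicate block ended the calls of POU3F4, PAX8-AS1, CALM2P2, LINC02487, SLC25A15, EML1 and CDC42EP1 among the 10 named differences. The cause of these shifts was not tested. Day 0 libraries, the shallower ones, limit what can be detected there.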

Other observations

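XACT, a noncoding RNA of pluripotent cells, fell in KO lines to a mean of 33.7 CPM at day 14, against 92.1 CPM at day 0 (log2 fold change -1.97, edgeR adjusted p = 0.000104). The feature opposite ALDOC, a glycolytic enzyme, had means of 5.29 CPM at day 14 and 83.2 CPM at day 0 (log2 fold change -4.61). KCNQ1OT1, an imprinted antisense RNA, rose in both readings, by 2.39 under its own name and by 5.37 under ENSG00000275666.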
